A study of Mus musculus with 6 samples.

Results

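Vasoactive genes of 3 systems were examined in kidneys of iron-deficient (FeD) and control mouse pups: the endothelin genes Edn1, Ednra, Ednrb and Ece1, the adrenomedullin genes Adm, Calcrl, Ramp2 and Ramp3, and the nitric oxide synthases Nos2 and Nos3. The 10 genes were taken by symbol from count tables of 24422 gene symbols, and all 10 were found. RNA was sequenced from whole kidneys of 3 FeD and 3 control pups, each a separate library, and all 6 were wild type C57BL/6 mice labelled as postnatal day 15. Dams were 8 weeks old at the start and ate a synthetic diet of 2 to 6 ppm iron (FeD) or a diet of 220 ppm iron (control); the labels give 1 month of diet before mating, the methods a shorter time, and the diets were kept up until tissue was taken. The methods name diets of different product lines, so iron and the rest of the diet cannot be told apart as sources of a difference, and neither the litter nor the sex of a kidney is given.

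Endothelin-1, the product of Edn1, is a strong vasoconstrictor that is cut from its precursor by the endothelin-converting enzyme Ece1. In the kidney it acts through the receptor Ednra, chiefly on vascular smooth muscle, and through Ednrb on endothelium and collecting duct, where it also promotes sodium excretion. Adrenomedullin, the product of Adm, is a vasodilator peptide whose receptor is Calcrl paired with the accessory protein Ramp2 or Ramp3. Nitric oxide is a vasodilator gas made from arginine by the endothelial synthase Nos3 and the inducible synthase Nos2. Edn1, Adm and Nos2 are textbook targets of the hypoxia-inducible factors (HIFs), whose degradation needs iron.

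Of these genes, both ligands rose in FeD kidneys, Nos2 fell, and no receptor, converting enzyme or endothelial synthase passed the test. Edn1 was 3.805-fold and Adm 2.39-fold higher, and Nos2 was 11.98-fold lower, in means of 3 kidneys. Thus 2 of the 10 genes passed higher and 1 lower (Padj under 0.05, the quasi-likelihood test of edgeR, with the Benjamini-Hochberg method applied across every gene tested). Among all 15145 tested genes 22.4% were higher and 23.3% lower by the same rule, so 2 of 10 higher was near and 1 of 10 lower was under the background. With a 2-fold change required as well, the same 3 genes passed, 2 of 10 higher and 1 of 10 lower, against a background of 4.34% higher and 5.69% lower. FeD and control kidneys did not overlap in 5 of the 10 genes, where 58.1% of all tested genes did not. The median log2 fold change was 0.21 over the 10 genes and -0.002 over all tested genes.

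Raw totals ranged from 13732173 to 20853293 counts per kidney, and a gene at 3 counts stood at 0.144 to 0.218 CPM, counts scaled to a common library total. Library FeD kidney 2 stood apart by genes of the adrenal gland, which lies against the kidney: the 9 adrenal markers summed to 1023 CPM there and to between 8.22 and 66.1 CPM in the other 5 kidneys. Dbh and Th, enzymes of catecholamine synthesis in the adrenal medulla, had 1484 and 1431 normalized counts in FeD kidney 2 and at most 8.00 and 3.83 elsewhere. The 66.1 CPM belonged to control kidney 1, where the steroid enzyme Hsd3b1 had 989 normalized counts and the other adrenal enzymes had at most 4.79. All 10 tubule and podocyte markers were found in every kidney, the lowest being Slc5a2 with 175 normalized counts in FeD kidney 1, while Ren1 and the globin symbols Hbb-b1, Hbb-b2, Hba-a1 and Hba-a2 were listed at 0 in all 6. For the 10 genes, fold changes without FeD kidney 2 are therefore given or plotted, and for the gene lists the counts without it are given. By the chi-square of raw counts per degree of freedom, FeD kidneys 1 and 2 differed by 11.5. FeD kidney 3 differed by 24.0 from kidney 1 and by 30.4 from kidney 2, and control pairs by 3.77 to 7.36. Values without FeD kidney 3 are therefore also plotted for the 10 genes, and list counts without it are given. Fewer cells of a type and less RNA per cell cannot be told apart in whole kidneys.

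**Figure D1:**
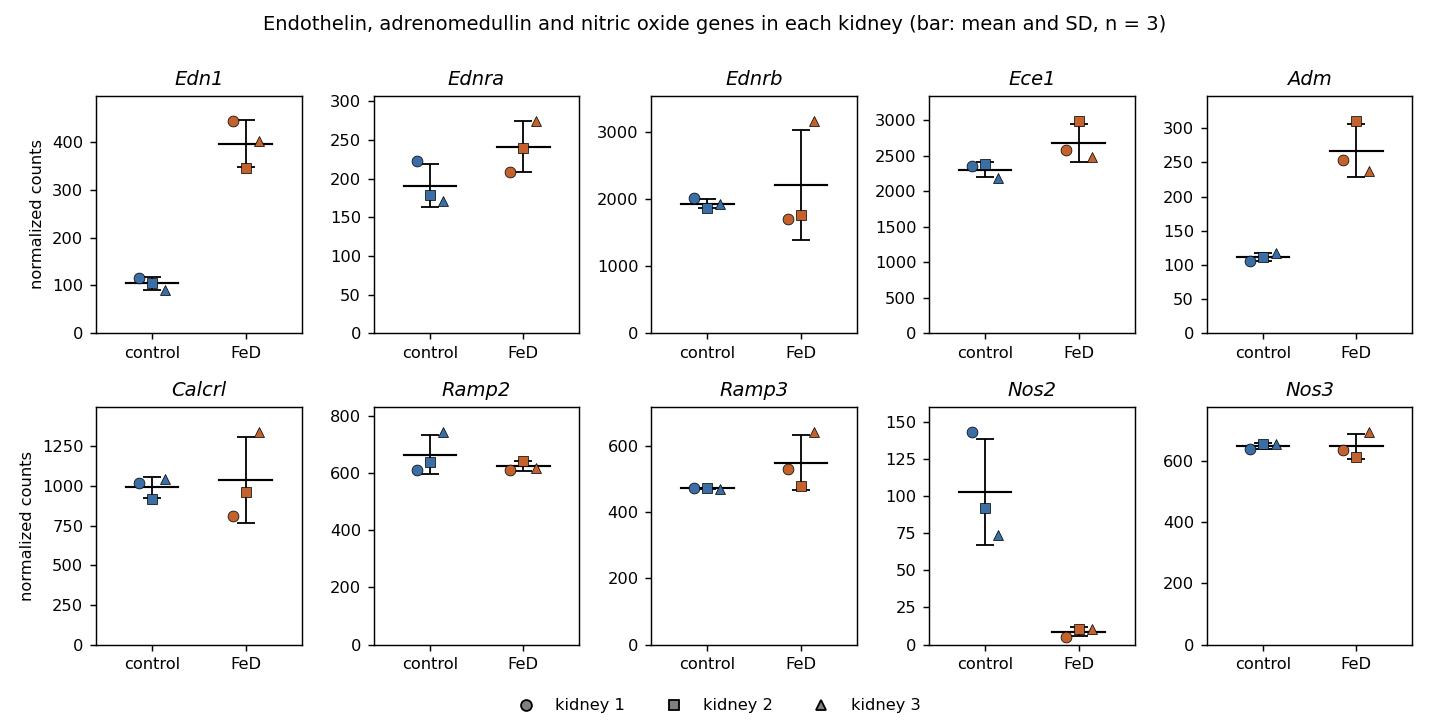
Normalized counts (raw counts scaled by TMM to the mean library size, y axis from 0) of the 10 genes in 3 control and 3 FeD kidneys; each point is 1 kidney, shaped by its number, and bars show the mean and SD. Every FeD kidney lies above every control kidney for Edn1 and Adm and below for Nos2, and FeD kidney 3 lies apart for Ednrb, at 3166.

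Levels were compared between genes as CPM per kilobase of annotated exon. In control kidneys the most abundant transcripts were those of Ednrb, at 26.8 ± 1.00 (SD, n = 3), and Ece1, at 24.4 ± 1.15. Below them were Ramp3 (19.1 ± 0.0990), Calcrl (11.4 ± 0.763), Ramp2 (11.3 ± 1.18) and Nos3 (8.78 ± 0.120). The ligand Adm stood at 4.52 ± 0.223, Edn1 at 2.49 ± 0.304, Ednra at 1.95 ± 0.280 and Nos2 at 1.37 ± 0.478. The ranges of Calcrl and Ramp2 overlapped, as did those of Edn1 and Ednra and of Ednra and Nos2, so these neighbours did not differ beyond their spread. In FeD kidneys, Adm (10.8 ± 1.54) and Edn1 (9.48 ± 1.18) stood beside Calcrl (11.9 ± 3.11), Ramp2 (10.6 ± 0.300) and Nos3 (8.76 ± 0.569). Edn1 overlapped with all of these, and Adm with all but Nos3, which lay below it. Nos2 fell to 0.115 ± 0.0414, the lowest of the 10 genes. These levels rest on the annotated exons. Ramp2 has 3301 exon bases in all its transcripts but 1178 in the transcript with the longest coding sequence, and over that length its control level was 31.6, the highest of the 10. Its FeD level over that length was 29.7 ± 0.840, above Adm and Edn1 without overlap, so the overlap of these ligands with Ramp2 depends on the length used.

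**Figure D2:**
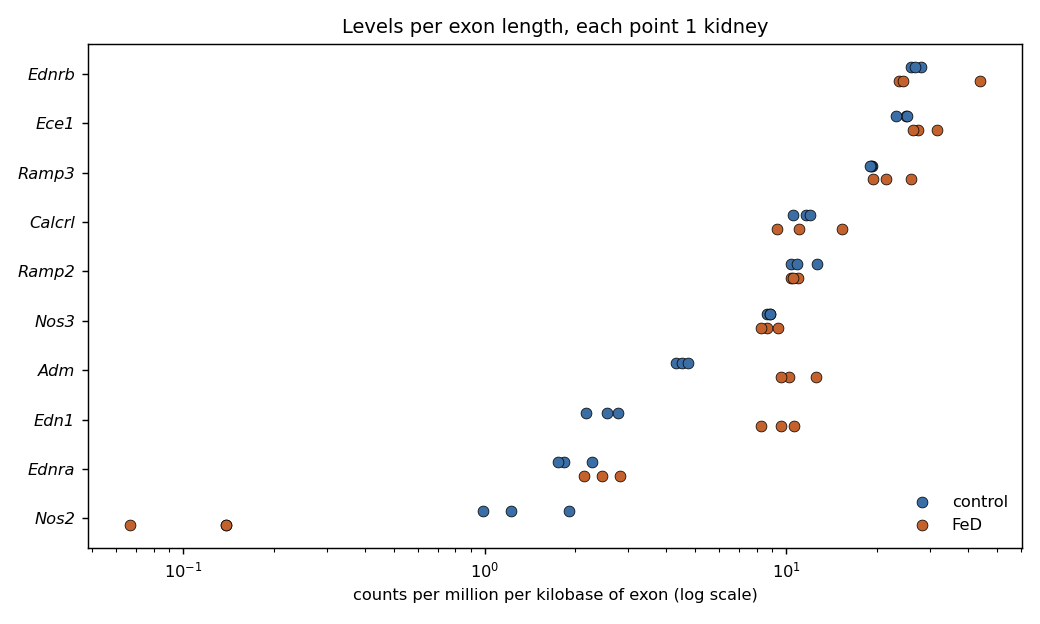
CPM per kilobase of exon (log axis) for the 10 genes, ordered by their control mean, with each point 1 kidney. Control kidneys of Edn1 lie between 2.17 and 2.77 and FeD kidneys between 8.25 and 10.6, beside Nos3, which stays between 8.27 and 9.38 in all 6 kidneys.

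Edn1 (chromosome 13, plus strand, 42396639 to 42403358, mm9) had 116, 106 and 90.7 normalized counts in control kidneys 1 to 3. It had 444, 345 and 401 in FeD kidneys 1 to 3. The groups did not overlap, and the lowest FeD kidney, number 2, was still far above the highest control. The log2 fold change, with its standard error (SE), was 1.93 (SE 0.14, Padj = 5.3e-05, edgeR), and 2.04 without FeD kidney 2 (Padj = 9.5e-05, edgeR).

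The promoters of the ligand genes are shown because both ligands rose; the RefSeq table used, of build GRCm38.p6 and not of the build of the counts, holds windows from 250 bases before to 50 bases after the start for 7 of the 10 genes, and none for Ramp2, Nos2 and Nos3. Capitals mark the core of the hypoxia response element, searched as ACGTG or GCGTG on both strands, so that a match on the minus strand reads CACGT or CACGC; no marked matches overlap. The Edn1 window is chr13:42301226-42301525 and the Adm window chr7:110627407-110627706, both on the plus strand.
Edn1: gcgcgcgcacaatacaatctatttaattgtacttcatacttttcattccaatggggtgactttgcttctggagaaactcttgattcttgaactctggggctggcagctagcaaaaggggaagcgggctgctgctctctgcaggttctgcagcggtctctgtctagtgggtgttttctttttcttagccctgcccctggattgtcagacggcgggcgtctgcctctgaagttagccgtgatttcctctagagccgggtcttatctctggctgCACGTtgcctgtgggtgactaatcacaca
Adm: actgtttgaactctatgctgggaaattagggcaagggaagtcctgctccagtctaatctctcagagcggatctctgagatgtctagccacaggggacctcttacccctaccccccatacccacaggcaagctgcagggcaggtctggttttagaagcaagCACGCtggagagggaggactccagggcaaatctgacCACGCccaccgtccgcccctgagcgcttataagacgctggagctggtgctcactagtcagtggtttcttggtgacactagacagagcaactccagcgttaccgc

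The Edn1 window held 1 core, from base 22 to base 26 of the transcript. The Adm window held 2 cores, from -90 to -86 and from -54 to -50 before the start. Such cores are common: 43.8% of 32841 windows of the same length held at least 1. Among the genes examined here, 6 of the 7 with a window held a core, including Ednrb, Ece1, Calcrl and Ramp3, which did not pass the test, while Ednra held none. A match of these letters is a description only, and binding was not measured.

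Ece1 (chromosome 4, plus strand, 137418152 to 137521144, mm9), the protease that releases active endothelin-1, had 2361, 2381 and 2183 normalized counts in control kidneys and 2585, 2992 and 2483 in FeD kidneys. The groups did not overlap, with FeD kidney 2 the highest. The difference was small and did not pass: the log2 fold change was 0.22 (95% confidence interval, CI, 0.03 to 0.40, Padj = 0.055, edgeR). Without FeD kidney 2 it was 0.16 (Padj = 0.10, edgeR). Without FeD kidney 3 it was 0.28 and passed (Padj = 0.013, edgeR), as it did under 4 further settings.

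The receptor genes differed in how far the kidneys spread. Ednra (chromosome 8, minus strand, 80186930 to 80248363, mm9) had 222, 179 and 172 normalized counts in control and 209, 240.2 and 274 in FeD kidneys, and the groups overlapped. Its log2 fold change of 0.34 did not pass (95% CI -0.01 to 0.68, Padj = 0.098, edgeR). Ednrb (chromosome 14, minus strand, 104213842 to 104243390, mm9) had 2011, 1868 and 1923 in control kidneys. In FeD kidneys it had 1711, 1766 and 3166, so kidneys 1 and 2 were below every control kidney and kidney 3 was above every one. The log2 fold change of Ednrb was 0.20 (95% CI -0.29 to 0.69, Padj = 0.48, edgeR), and -0.14 without FeD kidney 3 (Padj = 0.054, edgeR). Within a kidney, Ednrb was 9.97 to 15.6 times as abundant as Ednra per kilobase of annotated exon, with overlapping groups. Ednra has 5476 exon bases in all its transcripts but 3625 in the transcript with the longest coding sequence. Over that length the ratio is smaller.

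Adm (chromosome 7, plus strand, 117771175 to 117773331, mm9) had 106, 112 and 117 normalized counts in control kidneys. It had 254, 310.3 and 237 in FeD kidneys, all above control, and highest in FeD kidney 2, the library with the adrenal markers. The log2 fold change was 1.25 (SE 0.14, Padj = 0.00029, edgeR). Adrenal medulla is a known source of adrenomedullin, and the part of adrenal tissue in the result for Adm was not tested. Without FeD kidney 2 the log2 fold change was 1.15 (Padj = 0.00051, edgeR). FeD kidneys 1 and 3 had adrenal marker sums of 12.3 and 13.0 CPM, and control kidneys 1 to 3 had 66.1, 11.2 and 8.22 CPM.

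The receptor parts for adrenomedullin did not pass. Calcrl (chromosome 2, minus strand, 84170783 to 84265568, mm9), the membrane-spanning subunit, had 1016, 916 and 1042 normalized counts in control and 811, 965 and 1339 in FeD kidneys. FeD kidney 1 was the lowest and FeD kidney 3 the highest of all 6. Its log2 fold change was 0.07 (95% CI -0.31 to 0.45, Padj = 0.76, edgeR), and -0.15 without FeD kidney 3 (Padj = 0.22, edgeR). Ramp2 (chromosome 11, plus strand, 101107342 to 101120860, mm9), a partner that makes Calcrl bind adrenomedullin, had 613, 639 and 744 in control and 609.9, 644 and 619 in FeD kidneys, with overlapping groups. The log2 fold change of Ramp2 was -0.09 (95% CI -0.31 to 0.12, Padj = 0.45, edgeR). Vps25 shares the strand and 33.4% of the exon bases of Ramp2, so its count is uncertain. Ramp3 (chromosome 11, plus strand, 6558524 to 6577478, mm9), the alternative partner, had 474, 472 and 469 in control and 529, 479 and 641 in FeD kidneys. The groups of Ramp3 did not overlap, by a narrow margin for FeD kidney 2, and its log2 fold change of 0.22 did not pass (95% CI -0.03 to 0.48, Padj = 0.13, edgeR). Without FeD kidney 2 it was 0.33 and passed (Padj = 0.038, edgeR). Without FeD kidney 3, the highest for Ramp3, it was 0.11 and did not pass (Padj = 0.28, edgeR).

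Nos2 (chromosome 11, plus strand, 78734289 to 78773756, mm9), the inducible synthase, had 143, 91.8 and 73.8 normalized counts in control kidneys, with kidney 1 the highest. It had 4.999, 10.4 and 10.4 in FeD kidneys, from 5, 8 and 12 raw counts. All FeD kidneys were far below the lowest control kidney and stood above the limit of 3 counts. The log2 fold change was -3.57 (SE 0.38, Padj = 0.00024, edgeR). Without FeD kidney 2 it was -3.68 (Padj = 0.00080, edgeR). Nos2 passed the filter on low counts through the control kidneys; the other 9 genes had at least 96 raw counts in every kidney.

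Nos3 (chromosome 5, plus strand, 23870628 to 23890292, mm9), the endothelial synthase, had 637, 653 and 653 normalized counts in control and 636, 610.2 and 692 in FeD kidneys. The groups overlapped fully, and FeD kidneys lay on both sides of the controls. Its log2 fold change was -0.002 (95% CI -0.18 to 0.18, Padj = 0.98, edgeR). Atg9b and Gm15587 on the opposite strand cover 32.3% of the exon bases of Nos3, and the strand setting of the counting is not stated, so reads of these genes and of Nos3 cannot be told apart there. The ratio of Nos3 to Nos2 per kilobase went from 4.53, 7.21 and 8.97 in control kidneys to 129, 59.6 and 67.8 in FeD kidneys. With Nos3 nearly equal in the groups, this ratio restates the fall of Nos2 and is no further result. Its FeD values rest on 5, 8 and 12 raw counts of Nos2.

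Several of these genes are expressed by vascular cells, so markers of such cells were set beside them. Of 15 endothelial markers, 11 were lower in FeD kidneys, 1 was higher (Flt1) and 3 did not pass (Pecam1, Egfl7 and Erg), where 23.3% of all tested genes were lower. Once FeD kidney 2 was left out, 9 were lower by the same edgeR test, and Cdh5 (Padj = 0.058), Tek (Padj = 0.052) and Flt1 (Padj = 0.055, log2 fold change 0.47) no longer passed. Without FeD kidney 3, 12 of the endothelial markers were lower and 1 was higher. Their summed level was 2054 to 2085 CPM in control and 1344, 1487 and 1726 CPM in FeD kidneys 1 to 3, with none of the markers at 0. The endothelial genes Nos3, Calcrl and Ramp2 had log2 fold changes of -0.002, 0.07 and -0.09, while the median of the endothelial markers was -0.51. Relative to the summed endothelial markers, of which Plvap had the highest counts, Nos3 was 1.74% to 1.78% in control and 2.25% to 2.65% in FeD kidneys. Calcrl was 2.46% to 2.84% in control and 3.38% to 4.34% in FeD kidneys, and Ednrb was 5.02% to 5.48% in control and 6.65% to 10.3% in FeD kidneys. Edn1 was 0.247% to 0.316% in control and 1.30% to 1.85% in FeD kidneys on this scale. On it, 8 of the 10 genes were higher without overlap, Nos2 was lower, and Ramp2 overlapped (1.67% to 2.03% and 2.01% to 2.54%). The summed markers were lower in every FeD kidney, so a gene of unchanged counts, such as Nos3, is higher on this scale by its making. This count is therefore not a result about the 10 genes, and the share over all genes was not taken on this scale. The part of vascular cell content in the results was not tested.

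For each list below, the shares over all tested genes were 22.4% higher and 23.3% lower. Smooth muscle and pericyte markers were mixed, with 4 higher, 4 lower and 1 not passing of 9 tested. Their sum was 796 to 859 CPM in control and 1204 to 1443 CPM in FeD kidneys. Most of the rise in the sum lay in Rgs5, with means of 3354 normalized counts in control and 11130 in FeD kidneys. Among contractile genes, Myh11, Cnn1 and Des were lower (log2 fold changes of -1.31, -2.31 and -1.45), Tagln was higher (0.47) and Acta2 did not pass (0.04). Among mural and pericyte genes, Rgs5, Pdgfrb and Notch3 were higher (1.73, 0.59 and 0.35) and Cspg4 was lower (-0.24), so neither kind moved in 1 direction. When FeD kidney 2 was left out, 4 were higher and 3 lower, Cspg4 being lost (Padj = 0.071, edgeR). Without FeD kidney 3 the counts were also 4 and 3, with Cspg4 lost (Padj = 0.081, edgeR). Ednra, which such cells express, had a log2 fold change of 0.34 without passing. Of 8 macrophage markers, cells that can express Nos2, 5 were higher and 1 was lower, and the sums of 137 to 150 CPM in control and 141 to 174 CPM in FeD kidneys overlapped. Of 10 tubule and podocyte markers, 2 were higher and 4 lower. Aqp2 and Scnn1g, of the collecting duct, were higher (log2 fold changes of 1.13 and 0.75). Slc5a2, Slc34a1, Slc12a3 and Lrp2 were lower (-4.89, -2.22, -1.56 and -0.48). The sums of all 10 were 13387 to 14490 CPM in control and 7877 to 11473 CPM in FeD kidneys. Of 4 adipose markers 3 were lower, with sums of 123 to 140 CPM in control and 26.6 to 42.7 CPM in FeD kidneys. Of the red cell list, the marker tested, Alas2, did not pass. The counts of macrophage, tubule and podocyte, and adipose markers that passed in each direction were the same without FeD kidney 2. Without FeD kidney 3 they changed: 4 macrophage markers were higher and 1 lower. Of the tubule and podocyte markers 2 were higher and 6 lower, and 4 adipose markers were lower. The part of these cell types in the results was not tested.

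**Figure D3:**
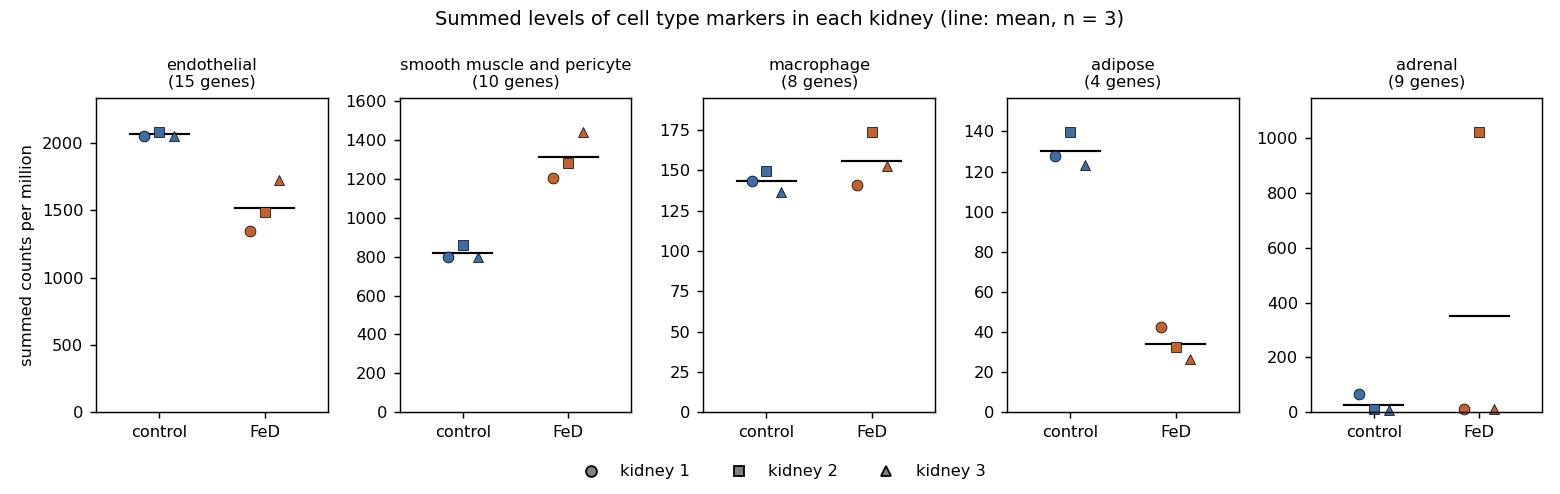
Summed CPM of 5 lists of cell type markers (y axis from 0) in 3 control and 3 FeD kidneys; each point is 1 kidney, shaped by its number, and lines are means. Endothelial sums are lower in all FeD kidneys, smooth muscle and pericyte sums higher, mostly through Rgs5, and the adrenal sum is 1023 CPM in FeD kidney 2.

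Other genes of the same systems were taken from a list of 36, of which 33 were tested, to set the 10 genes in their pathways. Of these 33, 10 passed higher and 11 lower, and 12 did not pass, where 22.4% of all tested genes were higher and 23.3% lower. At 2-fold, 3 passed higher and 1 lower (4.34% and 5.69% of all), 22 did not overlap between groups (58.1% of all), and the median log2 fold change was 0.09. Without FeD kidney 2, 18 of the 21 remained and Nos1 was gained; Ackr3, Gucy1a2 and Prkg2 were lost. Without FeD kidney 3, 19 of the 21 remained, Gch1 was gained, and Ackr3 and Ass1 were lost.

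Of these further genes, all 4 tested for the endothelin system passed, 3 higher and 1 lower, where 22.4% of all tested genes were higher and 23.3% lower. Among the genes examined first, Ednra, Ednrb and Ece1 of this system did not pass. Edn3, another ligand, which binds chiefly Ednrb, had 432, 413 and 391 normalized counts in control and 617, 592 and 846 in FeD kidneys, without overlap. Its log2 fold change was 0.74 (SE 0.14, Padj = 0.0035, edgeR), and 0.85 without FeD kidney 2. The precursor protease Furin (log2 fold change 0.35) and the degrading enzyme Mme, or neprilysin (0.24), were higher, and the second converting enzyme Ece2 was lower (-0.64). Edn2 had 1, 0 and 0 raw counts in control and 4, 1 and 0 in FeD kidneys. Only FeD kidney 1 stood above the limit of 3 counts, and Edn2 was not tested.

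In the adrenomedullin family, Ramp1, which turns Calcrl into the receptor for calcitonin gene-related peptide (CGRP), went from 53.7, 25.4 and 28.5 normalized counts in control to 85.0, 98.7 and 115 in FeD kidneys. The groups of Ramp1 did not overlap, and its log2 fold change was 1.47 (SE 0.30, Padj = 0.0048, edgeR), and 1.49 without FeD kidney 2. Calca, which encodes calcitonin and CGRP, had 23.0, 21.0 and 38.3 in control and 8.998, 6.49 and 10.4 in FeD kidneys. Its log2 fold change was -1.64 (SE 0.36, Padj = 0.0071, edgeR), and -1.48 without FeD kidney 2. Like Nos2, Calca passed the filter on low counts through the control kidneys; it had 9, 5 and 12 raw counts in FeD kidneys, and a filter of at least 10 counts in every kidney removes it. The scavenger receptor Ackr3 was lower (log2 fold change -0.21), and Adm2, Calcr, Crcp and the amidating enzyme Pam did not pass. Calcb had 0 to 4 raw counts and was not tested.

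Around nitric oxide, 6 genes were higher, 8 lower and 8 did not pass, and the liver-type arginase Arg1, with 4 to 10 raw counts, was not tested. The mitochondrial arginase Arg2, which uses the arginine that synthases need, had 471, 473 and 486 normalized counts in control and 1924, 1980 and 2398 in FeD kidneys. It was 4.41-fold higher (log2 fold change 2.14, SE 0.09, Padj = 8.9e-06, edgeR), or by 2.20 on the log2 scale without FeD kidney 2, and Vti1b on the opposite strand covers 20.0% of its exon bases. The cationic amino acid carrier Slc7a2 had 151, 138 and 123 in control and 251, 426 and 419.5 in FeD kidneys, and rose by 1.41 on the log2 scale (Padj = 0.0011, edgeR), or by 1.31 without FeD kidney 2. The enzymes that rebuild arginine from citrulline were lower, Ass1 with a log2 fold change of -0.69 and Asl with -0.67. Ass1 ran from 15106 to 16850 normalized counts in control and had 8629, 14323 and 6814 in FeD kidneys; its call depended on FeD kidney 3 (Padj = 0.061 without it, edgeR), and its log2 fold change was -1.03 without FeD kidney 2.

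Genes whose products set the activity of the synthases moved in both directions. Ddah1 and Ddah2, which clear the synthase inhibitor dimethylarginine, had log2 fold changes of -0.30 and -0.34. Spr, which makes the cofactor tetrahydrobiopterin, had -0.53, and Gchfr, which holds back Gch1, the first enzyme of that synthesis, had -0.56. Gch1 itself did not pass, with 82.0, 170.1 and 53.5 normalized counts in FeD kidneys, the highest in the kidney with the adrenal markers; its log2 fold change was 0.54, and -0.01 without that kidney. Cav1, the caveolin that binds Nos3, had -0.47, and the Nos3 trafficking gene Nostrin was higher (0.72). Downstream, the subunits of soluble guanylate cyclase Gucy1a3 and Gucy1b3, the receptor of nitric oxide, were higher (log2 fold changes of 0.55 and 0.78), and Gucy1a2 was lower (-0.63). The cGMP-dependent kinase Prkg2 was higher (0.88), while Prkg1 and the phosphodiesterase Pde5a did not pass. Nos1, the neuronal synthase, had 128, 139 and 121 normalized counts in control and 171, 126 and 248 in FeD kidneys, and did not pass with all kidneys (log2 fold change 0.50, Padj = 0.11, edgeR). Without FeD kidney 2 Nos1 had a log2 fold change of 0.72 and passed (Padj = 0.016, edgeR). With the FeD kidney of 248 normalized counts left out instead, the log2 fold change of Nos1 was 0.22 and did not pass (Padj = 0.31, edgeR). Whether Nos1 passed thus depended on which kidney was left out.

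The genes with the most similar pattern over the 6 kidneys were found by Pearson's r of log2 CPM among 12923 genes of at least 50 normalized counts on average, as a description only. They were Opcml, Prelid2 and Lrig2 for Edn1 (lowest r 0.999) and Stambp, Uri1 and Dyrk1a for Adm (lowest r 0.998). For Nos2 they were Zfp862-ps, Adam19 and Tm4sf1 (lowest r 0.996). The size of the change differed among these genes: in group means of normalized counts, Opcml went from 10.5 to 107.5, a larger change than that of Edn1, while Lrig2 went from 693 to 883 (0.35) and Tm4sf1 from 1590.2 to 1186 (-0.42). An r over 0.95 was shared with 964 genes for Edn1, 1129 for Adm and 552 for Nos2, and the 6 points share their 2 groups.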

How the data were processed

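RNA-seq of 3 FeD and 3 control kidneys was used. The authors selected polyadenylated RNA, prepared TruSeq libraries, trimmed reads with Trimmomatic, aligned them to mm9 with TopHat2 2.0.11 and deposited raw counts per gene symbol from HTSeq, not normalized; annotation, counting mode and strand setting are not given in the sources used here. The analysis used edgeR 4.0.16 under R 4.3.3: filterByExpr kept 15145 of 24422 genes, TMM scaled the libraries, and all 6 kidneys entered one quasi-likelihood fit with Benjamini-Hochberg adjustment over all tested genes. The standard error is the log2 fold change divided by the square root of F. CPM per kilobase used exon lengths of the GENCODE NCBIM37 annotation, the build of the counts; promoters are from RefSeq. The 10 genes, the gene lists and the rule for named genes (all 10, those of the lists that passed, markers set beside a result, and the 3 most similar patterns of Edn1, Adm and Nos2) were chosen with earlier results of these data known. Alternatives were other scaling and filters, DESeq2 1.42.0, the replicate number as a block, edgeR's test against a 2-fold change, and each kidney left out in turn; the length of the transcript with the longest coding sequence was added after seeing the data. The fits were tested on simulated data. Intervals and limits of 3 counts cover counting error or the spread between these kidneys only, which the study calls biological replicates; with 3 against 3, an exact permutation test cannot go below 0.10.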

Additional observations from a re-analysis of the deposited data

How the results depend on the processing

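Edn1, Adm and Nos2 kept their direction and passed when tested against no change: Edn1 and Adm in all 13 alternative settings and Nos2 in 12. The filter of at least 10 counts in every kidney removed Nos2, which has 5 and 8 counts in FeD kidneys 1 and 2, so that 0 genes were lower under it, also at 2-fold. Against a fold change of 2 itself, edgeR's test left 1 gene higher (Edn1) and, over all genes, 225 higher and 286 lower in place of 657 and 862. Values that missed the threshold turned sign without FeD kidney 3 for Ednrb (-0.14, up to 0.37 with other kidneys left out) and Calcrl (-0.15, up to 0.24), and for Nos3 with DESeq2's size factors (0.0067), with at least 10 counts in every kidney (0.0096), with DESeq2 (0.0079), and with kidneys left out (-0.043 to 0.058, above 0 without control kidney 3, FeD kidney 1 or FeD kidney 2); the cause was not tested. With each kidney left out in turn, related genes that passed lower ranged from 7 to 9 against 11, the 7 being without control kidney 2 or control kidney 3. Over all genes, those that passed lower ranged from 2618 to 3817 against 3527, with 2618 without control kidney 2 and 2623 without control kidney 3. Ece1 passed with DESeq2's size factors, with at least 10 counts in every kidney, with DESeq2, with the replicate block and without FeD kidney 3, over Padj values of 0.013 to 0.19 (edgeR or DESeq2). Same-numbered kidneys did not deviate together (r of -0.16, 0.0001 and -0.03 for numbers 1 to 3), and the labels pair them by nothing but a number. Such values cannot exclude a shared litter or batch. With the replicate number as a block, 3 of the 10 genes were higher and 1 lower, and over all genes 3100 were higher and 3344 lower against 3397 and 3527. Per kilobase of the transcript with the longest coding sequence, control means were 2.95 for Ednra, 27.9 for Ece1, 31.6 for Ramp2 and 21.4 for Ramp3. The globin symbols held no counts, so leaving them out changed nothing. Edn2 and Calcb had 0 to 4 raw counts per kidney, mostly below the limit of 3 counts, and were not tested.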
